A study of Homo sapiens with 6 samples.

Results

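The genes described here are 10 genes of the response to double-stranded RNA, chosen by symbol from the 54261 gene symbols of the count table. They are the sensors DDX58 (RIG-I), IFIH1 (MDA5), DHX58 (LGP2), EIF2AK2 (PKR) and TLR3, the adaptors MAVS and TICAM1 (TRIF), the kinase TBK1, and the transcription factors IRF3 and IRF7. All 10 were rows of the table, 9 had reads and passed the filter on low counts, and IRF7 was listed at 0 in every library. RNA was sequenced from PC9/GR, which the labels give as lung cancer cells, in 3 libraries labelled si-MYLK-AS1, the MYLK-AS1 knockdown, and 3 labelled si-NC, the control. MYLK-AS1 is a long non-coding RNA read from the strand opposite the myosin light chain kinase gene MYLK. Both groups are labelled as carrying small interfering RNA (siRNA), so the comparison sets siRNA against siRNA. A response common to both would not show in it. A response to the si-MYLK-AS1 RNA itself cannot be told apart from an effect of less MYLK-AS1 in this design. The labels do not say that replicates came from separate cultures, and the p-values then cover no more than sample-to-sample spread, possibly technical in origin.

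Cells meet double-stranded RNA in the cytosol and in endosomes. In the cytosol RIG-I binds short duplexes, with a preference for triphosphate ends, and MDA5 binds long duplexes. Both then pass the signal through their caspase recruitment domains to MAVS on mitochondria, while LGP2 lacks those domains and tunes the other receptors. TLR3 reads double-stranded RNA in endosomes and signals through TRIF. Both routes meet at the kinase TBK1, which phosphorylates IRF3 and IRF7 to switch on interferon genes, and PKR answers the same ligand by phosphorylating the translation factor eIF2 alpha. Several of these genes are themselves induced by interferon, which makes them part of a feedback loop.

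Library totals ran from 7551303 to 11055408 counts. In the check of the knockdown, MYLK-AS1 had 0, 5 and 4 reads in knockdown replicates 1 to 3 and 20, 16 and 19 reads in control replicates 1 to 3 (log2 fold change -2.43, SE 0.60, adjusted p = 0.00326 by edgeR's quasi-likelihood test, as for every adjusted p below). Levels are given in CPM, which are read counts divided by the scaled library total in units of 1e6 reads. MYLK, on the other strand, was also lower, with 27.6 ± 1.58 CPM in the knockdown and 44.5 ± 6.30 CPM in the control (SD, n = 3 each). A log2 change is the log2 fold change of knockdown over control. Of 15391 tested genes, 42.0% passed an adjusted p of 0.05, with 21.3% higher and 20.7% lower in the knockdown. Among 10 epithelial and lung markers the keratins KRT7, KRT8 and KRT18 were abundant. CDH1 was expressed too, averaging 44.3 CPM in the knockdown and 96.7 CPM in the control. SFTPB was at 0, and EPCAM, EGFR and NKX2-1 were low. EPCAM had 0.524 to 0.639 CPM in the knockdown and 1.28 to 1.67 CPM in the control, and EGFR averaged 3.36 CPM in the knockdown and 2.46 CPM in the control. NKX2-1 averaged 0.444 CPM in the knockdown and 0.293 CPM in the control. The levels of EPCAM, EGFR and NKX2-1 are low for a PC9 lung cancer line, so they do not bear out that part of the label PC9/GR. Whether PC9/GR cells differ from PC9 cells in these genes was not tested. The identity of the cells was not tested. Some widely expressed genes also had almost no reads, as described below, and whether the counting lowered these markers was not tested. The summed level of these markers was 7626 to 8230 CPM in the knockdown and 11849 to 13871 CPM in the control. The 8 immune markers summed to 286 to 329 CPM in the knockdown and 207 to 290 CPM in the control, most of it CD68, with PTPRC and CD3E at 0. The 9 fibroblast and endothelial markers summed to 26.6 to 31.4 CPM in the knockdown and 21.4 to 28.0 CPM in the control, with COL1A2 at 0. The part of these marker lists in the results was not tested, and in bulk RNA fewer cells of a type cannot be told apart from less RNA per cell.

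Of the 9 sensors and adaptors with reads, 5 rose in the knockdown and none fell, which is 55.6% against 42.0% of all tested genes. All of the cytosolic and endosomal sensors except LGP2 were among those that rose, as was TBK1. The adaptors MAVS and TRIF, the factor IRF3 and LGP2 did not pass. The median log2 change of the 9 genes was 0.48, against -0.00050 over all tested genes. Levels did not overlap between groups for 4 of the 9, DDX58, EIF2AK2, TLR3 and TBK1, against 52.2% of all tested genes.

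**Figure D1:**
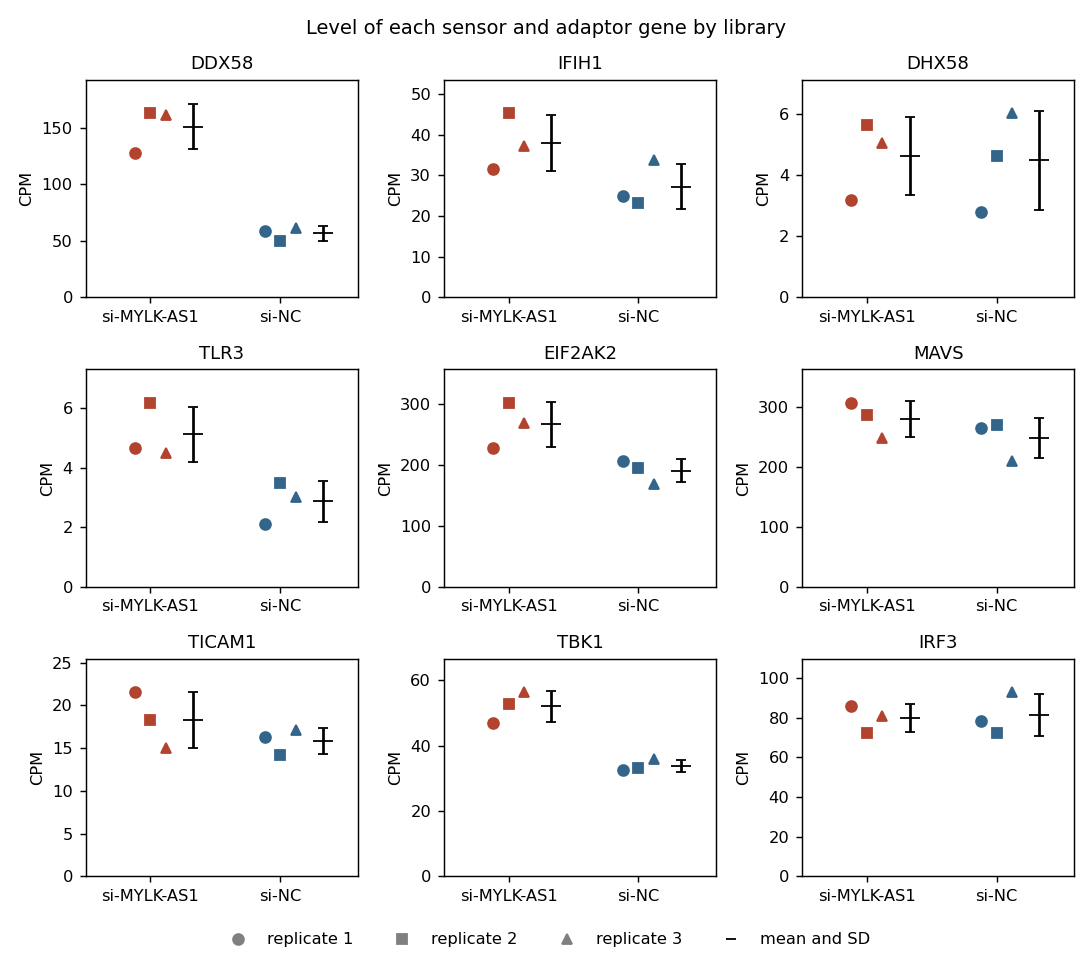
Level in CPM (vertical axis, starting at 0, scale differs by panel) of the 9 members with reads, in the 3 si-MYLK-AS1 libraries (left) and the 3 si-NC libraries (right), with the mean and SD beside each group. DDX58 lies at 128 CPM or more in every knockdown library and at 61.5 CPM or less in every control library, while DHX58, MAVS, TICAM1 and IRF3 overlap between groups.

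DDX58, the gene of RIG-I, showed the greatest change among the 9. It was measured at 128, 163 and 161 CPM in knockdown replicates 1 to 3 and at 58.4, 49.4 and 61.5 CPM in control replicates 1 to 3. Every knockdown library thus lay far above every control library. The means were 151 ± 19.8 CPM in the knockdown and 56.4 ± 6.27 CPM in the control (SD, n = 3 each), a 2.67-fold difference (log2 change 1.42, SE 0.12, adjusted p = 5.24e-08). The reads behind these levels were 1402, 1557 and 1182 in the knockdown and 525, 513 and 672 in the control. DDX58 (ENSG00000107201.9) lies on the minus strand of chromosome 9, from 32455705 to 32526324 on GRCh38, and shares no annotated exon base with another gene.

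IFIH1, the gene of MDA5, rose, with overlapping groups. It was measured at 31.5, 45.4 and 37.1 CPM in knockdown replicates 1 to 3 and at 24.8, 23.2 and 33.7 CPM in control replicates 1 to 3. Control replicate 3 lay above knockdown replicate 1, so the groups overlapped. The means were 38.0 ± 6.98 CPM in the knockdown and 27.2 ± 5.64 CPM in the control (SD, n = 3 each; log2 change 0.48, SE 0.16, adjusted p = 0.0236). The call was lost without knockdown replicate 2 (adjusted p = 0.149), control replicate 1 (0.0837) or control replicate 2 (0.116).

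DHX58, the gene of LGP2, was low in all libraries and had overlapping groups. It had 35, 54 and 37 reads in knockdown replicates 1 to 3, or 3.20, 5.66 and 5.05 CPM, and 25, 48 and 66 reads in control replicates 1 to 3, or 2.78, 4.63 and 6.04 CPM. Its log2 change of 0.02 (SE 0.30, adjusted p = 0.962) had a 95% interval of -0.61 to 0.65, which is too wide to set it apart from the shift of IFIH1. Of the RIG-I-like receptors, then, DDX58 and IFIH1 passed and DHX58 did not.

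The difference between receptors was looked at within each library. The log2 ratio of DDX58 to IFIH1 was 2.02, 1.85 and 2.12 in knockdown replicates 1 to 3 and 1.24, 1.09 and 0.87 in control replicates 1 to 3. DDX58 therefore gained on IFIH1 by 0.93 on the log2 scale, with no overlap of the groups. The log2 ratio of DDX58 to DHX58 was higher in the knockdown by 1.34. Each of the 4 ratios examined gave p = 0.1 by a two-sided exact permutation test, also after Benjamini-Hochberg adjustment, the smallest p that 3 against 3 libraries can give. The pairs were not planned, and each sets a gene that rose over one that rose less or did not pass. The ratios therefore restate the changes of single genes and are no separate test.

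EIF2AK2, the gene of PKR, rose. It was measured at 228, 302 and 269 CPM in knockdown replicates 1 to 3 and at 206, 196 and 169 CPM in control replicates 1 to 3. The groups did not overlap, though knockdown replicate 1 lay close to control replicate 1. The means were 266 ± 37.4 CPM in the knockdown and 190.4 ± 19.0 CPM in the control (SD, n = 3 each; log2 change 0.48, SE 0.11, adjusted p = 0.00159). An annotated processed pseudogene on the opposite strand shares 3.73% of its exon bases and the neighbour GPATCH11 shares 0.325%.

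TLR3, the endosomal receptor, rose from few reads. It had 51, 59 and 33 reads in knockdown replicates 1 to 3, or 4.66, 6.18 and 4.50 CPM, and 19, 36 and 33 reads in control replicates 1 to 3, or 2.11, 3.47 and 3.02 CPM. All knockdown libraries lay above all control libraries in CPM. The log2 change was 0.83 (SE 0.27, adjusted p = 0.0218), and the call was lost without knockdown replicate 2 (adjusted p = 0.108) or control replicate 1 (0.112). At this depth counting error is a sizeable part of the spread.

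Neither adaptor passed. MAVS, the mitochondrial adaptor of RIG-I and MDA5, was measured at 308, 287 and 249 CPM in knockdown replicates 1 to 3 and at 266, 271 and 210.1 CPM in control replicates 1 to 3. The groups overlapped, and the log2 change of 0.18 (SE 0.11, adjusted p = 0.201) had a 95% interval of -0.05 to 0.40. TICAM1, which codes for the TLR3 adaptor TRIF, was measured at 21.5, 18.3 and 15.0 CPM in the knockdown and at 16.4, 14.2 and 17.1 CPM in the control. Its groups overlapped too, with a log2 change of 0.21 (SE 0.16, adjusted p = 0.314, 95% interval -0.13 to 0.56). The log2 ratio of DDX58 to its adaptor MAVS was -1.27, -0.81 and -0.62 in knockdown replicates 1 to 3 and -2.18, -2.45 and -1.77 in control replicates 1 to 3, a difference of 1.24.

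Of the kinase and its substrates, TBK1 rose and IRF3 did not pass. TBK1 was measured at 46.9, 52.8 and 56.4 CPM in knockdown replicates 1 to 3 and at 32.5, 33.1 and 36.0 CPM in control replicates 1 to 3, with no overlap and little spread in the control. Its log2 change was 0.62 (SE 0.12, adjusted p = 0.000466). IRF3 was measured at 86.1, 72.2 and 80.9 CPM in the knockdown and at 78.3, 72.5 and 92.9 CPM in the control. Its log2 change of -0.03 (SE 0.11, adjusted p = 0.870) had a 95% interval of -0.26 to 0.21. The log2 ratio of TBK1 to IRF3 was -0.88, -0.45 and -0.52 in knockdown replicates 1 to 3 and -1.27, -1.13 and -1.37 in control replicates 1 to 3. Both counts are uncertain to a degree, since BCL2L12 on the opposite strand shares 19.3% of the IRF3 exon bases and an annotated antisense RNA shares 14.7% of those of TBK1, and whether the counting used strand is not given in the sources used here.

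IRF7, the interferon-inducible factor of the feedback loop, had 0 reads in all 6 libraries. By counting error alone, 0 reads allow a level of up to 3 reads, or 0.274 to 0.410 CPM by library. The gene (ENSG00000185507.20) lies on the minus strand of chromosome 11 from 612553 to 615999 on GRCh38, inside a run of 12 neighbouring protein-coding genes, from PTDSS2 to DEAF1, that together had 1 read. Of all 19282 protein-coding genes with a row, 18.8% were at 0, but this run includes PTDSS2, RNH1 and DEAF1, which most cell types are known to express. The genes on either side of the run, ANO9 and TMEM80, had 125 and 592 reads. The 0 of IRF7 is therefore reported as a listing and not as a level of the gene, and the cause of the run was not tested.

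**Figure D2:**
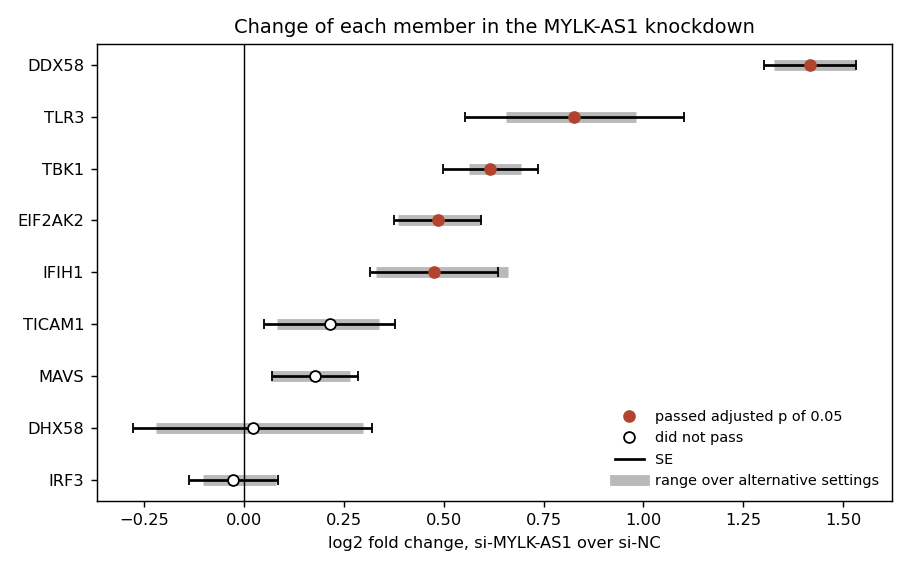
Log2 fold change of si-MYLK-AS1 over si-NC (horizontal axis) for the 9 tested members, ordered by size, with the SE as a black bar and the range over the alternative settings and left-out libraries as a grey bar. The grey bars of DDX58, TLR3, TBK1, EIF2AK2 and IFIH1 stay above 0, as do those of MAVS and TICAM1, which did not pass. Those of DHX58 and IRF3 cross 0.

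The order of levels between members was read per kilobase of merged exon length. In the knockdown DDX58 was the highest at 34.7 ± 4.55 CPM per kb (SD, n = 3), followed by EIF2AK2 at 24.8 ± 3.48, MAVS at 23.9 ± 2.55 and IRF3 at 21.0 ± 1.85 CPM per kb. In the control IRF3 (21.4 ± 2.77 CPM per kb), MAVS (21.1 ± 2.86) and EIF2AK2 (17.7 ± 1.77) led, and DDX58 came after them, with 11.4 to 14.1 CPM per kb. The ranges of EIF2AK2, MAVS and IRF3 overlapped in both groups, whereas every DDX58 library lay above all of theirs in the knockdown and below all of theirs in the control. With the longest transcript as the length, the first place of DDX58 was less clear: its knockdown libraries had 29.4 to 37.5 CPM per kb, those of IRF3 averaged 27.8 ± 2.44 and those of EIF2AK2 26.5 ± 3.73, and both overlapped DDX58. TBK1 came next in both groups, at 10.9 ± 1.00 CPM per kb in the knockdown and 7.11 ± 0.389 in the control. TICAM1 and IFIH1 overlapped each other below it, and DHX58 and TLR3 were lowest. TLR3 had 0.761 ± 0.138 CPM per kb in the knockdown and 0.426 ± 0.103 in the control.

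Many interferon-inducible genes carry the element GAAANNGAAA, which IRF factors bind, and it was searched for on both strands of the RefSeq promoters on GRCh38.p14, which span 250 bases before to 50 bases after the start. Promoters were at hand for 7 of the 10 members: DDX58, IFIH1, EIF2AK2, TLR3, MAVS, TICAM1 and TBK1. The element was found in 3 of them, IFIH1, TLR3 and EIF2AK2, against 2.70% of the 10229 tested genes with a promoter. The 5 windows of 30 bases below show these matches and 1 related element in capitals, written 5′ to 3′ on the strand of the gene, where TTTCNNTTTC is the element read on the other strand. In IFIH1 (chr2:162318821-162318850, minus strand) a pair of overlapping matches spans 159 to 144 bases before the start, and another (chr2:162318686-162318715) spans 21 to 12 bases before it. In EIF2AK2 (chr2:37156967-37156996, minus strand) the match begins 6 bases before the start, and in TLR3 (chr4:186069142-186069171, plus strand) 4 bases before it. The DDX58 window (chr9:32526380-32526409, minus strand) holds GAAANGAAA, with 1 base fewer between its ends, a pattern chosen after this promoter had been read.
IFIH1 distal: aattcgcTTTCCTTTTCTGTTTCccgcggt
IFIH1 proximal: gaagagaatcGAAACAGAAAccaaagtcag
EIF2AK2: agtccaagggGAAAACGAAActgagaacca
TLR3: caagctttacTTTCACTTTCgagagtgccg
DDX58: ggtgcggaggGAAACGAAActagcccgagg

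The members with GAAANNGAAA all rose, with log2 changes of 0.48 for IFIH1, 0.83 for TLR3 and 0.48 for EIF2AK2. MAVS, TICAM1 and TBK1 had neither pattern in the window, and of these TBK1 rose. Over the whole table, 33.3% of the 276 tested genes with GAAANNGAAA rose, against 24.3% of all 10229 with a promoter. GAAANGAAA stood in 2.62% of those promoters, and 31.3% of the 268 genes with it rose. A match describes the letters only and no binding was measured.

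The genes around the members were described from lists by role. Of 13 regulators of RIG-I-like receptors 11 were tested, 2 rose and none fell, or 18.2% called, below the 42.0% of all tested genes. TRIM25, the ubiquitin ligase that activates RIG-I, had 211 ± 27.1 CPM in the knockdown and 139 ± 8.67 CPM in the control (SD, n = 3 each; log2 change 0.61, SE 0.10, adjusted p = 0.000135). ATG12, an autophagy factor that restrains the RIG-I route when joined to ATG5, rose by a log2 change of 0.73 (SE 0.12). The other 9 did not pass, and the list median was 0.16.

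Of 23 genes of the relay from MAVS and TRIF to the kinases 20 were tested, 11 rose and none fell, which is 55.0% called against 42.0% of all tested genes, with a median log2 change of 0.41. CHUK, the kinase IKK alpha, had 60.8 ± 11.2 CPM in the knockdown and 30.4 ± 2.78 CPM in the control (log2 change 1.00, SE 0.14). The death domain adaptors TRADD (0.89, SE 0.13) and FADD (0.61, SE 0.10) rose as well. IKBKE, the close relative of TBK1, rose by 0.52 (SE 0.17, adjusted p = 0.0218), a gene named after its value was seen. Leaving out control replicate 1 gave 7 that rose, and a threshold of 0.01 gave 6.

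Of 15 other nucleic acid sensors 11 were tested, 6 rose and none fell, a share called of 54.5% against 42.0% of all tested genes, with a median of 0.40. The RNA helicases DHX9 (0.72, SE 0.10) and DHX36 (0.80, SE 0.11) and the CpG-binding antiviral protein gene ZC3HAV1 (0.74, SE 0.13) led by p. The other 3 that rose were OAS1 (0.39, SE 0.11) and OASL (0.88, SE 0.26) of the oligoadenylate synthetase family and the DNA sensor CGAS (0.63, SE 0.21). OAS1 and OASL had overlapping groups.

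Of 17 other Toll-like receptor genes and partners 10 were tested, 4 rose and 1 fell, so that 5 of 10 were called, against 42.0% of all tested genes. MYD88, the adaptor of most Toll-like receptors but not of TLR3, had 156 ± 18.2 CPM in the knockdown and 57.6 ± 3.93 CPM in the control (SD, n = 3 each; log2 change 1.44, SE 0.11, adjusted p = 1.66e-08). Its partner adaptor TIRAP rose by 1.13 (SE 0.22) and the kinase gene IRAK1 by 0.62 (SE 0.09). TLR6 also rose (0.50, SE 0.14) and the co-receptor CD14 fell (-0.71, SE 0.15). The RNA sensors TLR7 and TLR8 had 0 reads.

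On the PKR side all 15 genes were tested, 6 rose and none fell, a share of 40.0% that lies near the 42.0% of all genes. EIF2S1, which codes for the PKR substrate eIF2 alpha, had 151 ± 14.3 CPM in the knockdown and 96.6 ± 2.21 CPM in the control (log2 change 0.65, SE 0.10). The phosphatase subunit PPP1R15A, which reverses eIF2 alpha phosphorylation, rose by 0.94 (SE 0.11), and EIF2AK3, the kinase of endoplasmic reticulum stress, by 1.13 (SE 0.14). PRKRA, the protein activator of PKR, had a log2 change of -0.16 (SE 0.16, adjusted p = 0.464).

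**Figure D3:**
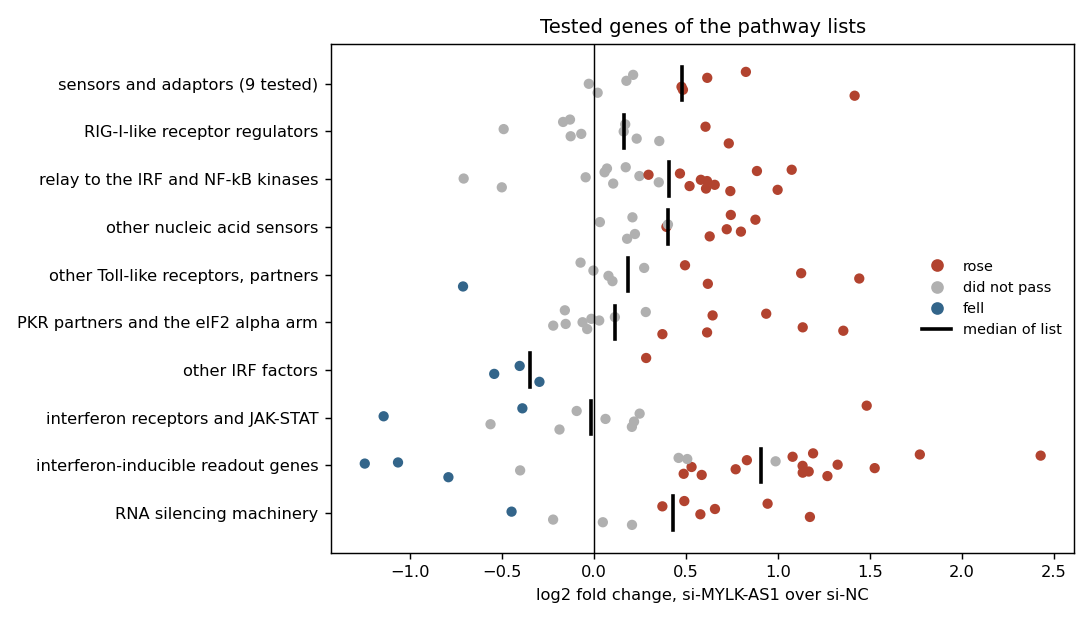
Log2 fold change of si-MYLK-AS1 over si-NC (horizontal axis) for the tested genes of each pathway list, 1 point per gene, coloured by whether it rose, did not pass or fell, with the list median as a black line. Among the lists drawn, the medians run from -0.35 for the other IRF factors to 0.91 for the interferon-inducible readout genes; the interferons, none of them tested, and the endogenous RNAs, with 2 tested and a median of 3.26, are left out.

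Of 7 other IRF factors 4 were tested, 1 rose and 3 fell. All 4 were thus called, against 42.0% of all tested genes, of which 21.3% were higher and 20.7% lower. So few genes make this share a coarse one. IRF2 (-0.54, SE 0.13), IRF5 (-0.40, SE 0.13) and IRF1 (-0.29, SE 0.11) fell. IRF9, a factor of the response to interferon, rose by 0.28 (SE 0.10, adjusted p = 0.0356). The number that fell was 1 without control replicate 3 and at a threshold of 0.01. It was 2 with DESeq2, limma-voom, the replicate block or no filter. It was also 2 when a knockdown library or control replicate 1 was left out. The number that rose was 0 at a threshold of 0.01, with upper quartile factors or with a stricter filter. It was also 0 without knockdown replicate 2 or 3, or without control replicate 1 or 2.

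Interferon transcripts themselves were at the edge of detection. None of the 9 interferon genes passed the filter. IFNB1 had 15 reads over the knockdown libraries and 8 over the control libraries, IFNL1 10 and 4, IFNL3 12 and 7, IFNL2 1 and 4, and IFNE 3 and 14. IFNA1, IFNA2, IFNK and IFNG had 0 reads in all libraries. At this depth a small difference in interferon transcripts was not detectable. With no filter 5 of these genes were tested, and 0 rose and 0 fell.

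Of 11 interferon receptor and JAK-STAT genes 10 were tested, 1 rose and 2 fell, so that 3 of 10 were called, a share below the 42.0% of all tested genes. USP18, an interferon-inducible brake on the receptor, had 49.6 ± 10.5 CPM in the knockdown and 17.6 ± 2.73 CPM in the control (SD, n = 3 each; log2 change 1.48, SE 0.16). SOCS3, an inhibitor of cytokine signalling, fell by 1.14 on the log2 scale (SE 0.13) and TYK2 had -0.39 (SE 0.11). The number that rose was 2 without knockdown replicate 1 or control replicate 3. Among 24 interferon-inducible readout genes 22 were tested, 15 rose and 3 fell, or 81.8% called against 42.0% of all tested genes, with a median of 0.91, and SAMD9 (2.43, SE 0.16), IFIT5 (1.32, SE 0.12) and PARP9 (1.08, SE 0.11) had the lowest p. The 3 that fell were the antiviral membrane proteins IFITM1 (-1.24, SE 0.26), IFITM3 (-1.06, SE 0.14) and BST2 (-0.79, SE 0.26). IFITM1 and IFITM3 are close copies, and reads may be shared between them. Readout genes that rose numbered 10 at a threshold of 0.01, without knockdown replicate 2 or 3, or without control replicate 1. They numbered 12 without control replicate 2 and 18 without control replicate 3.

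The readout genes differed in level between libraries of 1 group. All 22 readout genes lay below their group mean in knockdown replicate 1 and above it in knockdown replicate 2, and all 22 lay below it in control replicate 2. In knockdown replicate 1 the sensors DDX58, IFIH1, DHX58, TLR3 and EIF2AK2 and the kinase TBK1 lay below their group mean as well, and MAVS, TICAM1 and IRF3 lay above it. In control replicate 3, where the median readout gene lay 0.32 above the group mean on the log2 scale, 7 of the 9 members also lay above it: DHX58 by 0.49, IFIH1 by 0.33, IRF3 by 0.20, DDX58 by 0.13, TICAM1 by 0.11, TLR3 by 0.10 and TBK1 by 0.09. EIF2AK2 (-0.16) and MAVS (-0.23) were below it. In control replicate 2, where all 22 readout genes lay below the group mean, 5 of the 9 members lay below it and 4 above. The median member lay -0.15, 0.12 and 0.02 from the group mean in knockdown replicates 1 to 3 and -0.04, -0.03 and 0.11 in control replicates 1 to 3. The median of all tested genes ran from -0.0036 in knockdown replicate 1 to 0.0077 in knockdown replicate 3.

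**Figure D4:**
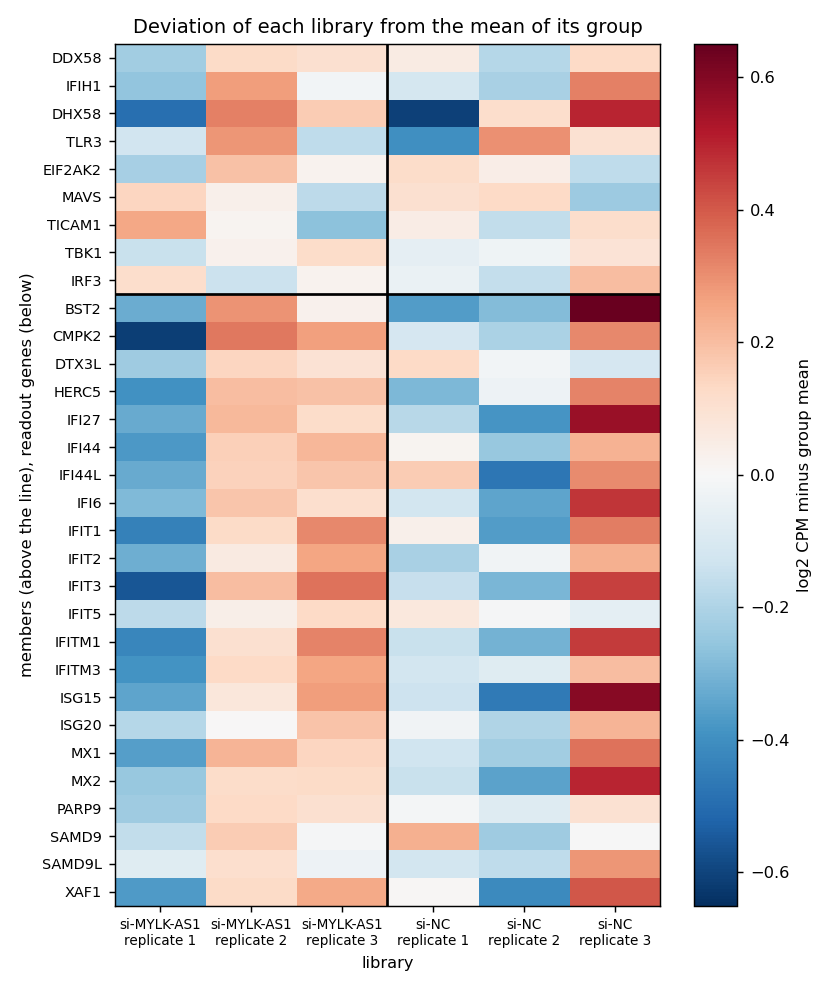
Log2 CPM of each library minus the mean of its group (colour, red above and blue below) for the 9 tested members (rows above the line) and the 22 tested readout genes (rows below), with the si-MYLK-AS1 libraries left of the si-NC libraries. Knockdown replicate 1 is blue for all 22 readout genes and for 6 of the 9 members, and MAVS, TICAM1 and IRF3 are red there.

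Of 14 genes of RNA silencing, only some of which handle an siRNA after uptake, 10 were tested. Of these 6 rose and 1 fell, or 70.0% called against 42.0% of all tested genes, with a median of 0.43. The Argonaute gene AGO4 (1.17, SE 0.16), TSNAX (0.94, SE 0.17), a subunit of the nuclease that clears siRNA passenger strands, and TARBP2 (0.66, SE 0.12), the duplex-binding partner of Dicer and an inhibitor of PKR, rose. DROSHA fell (-0.45, SE 0.11). AGO2, the slicing Argonaute, had a log2 change of 0.05 (SE 0.13, adjusted p = 0.788). DROSHA and AGO2 lie outside the rule for named genes and were chosen after their values were seen.

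RNAs known to bind RIG-I or PKR were measured poorly. Of 7 such RNAs only the signal recognition particle RNAs RN7SL1 and RN7SL2 were tested, and they are near-identical copies. RN7SL1 had 32.2, 39.2 and 151 CPM in knockdown replicates 1 to 3 and 6.79, 7.90 and 6.22 CPM in control replicates 1 to 3, with an adjusted p of 0.0379. Knockdown replicate 3 was far above the rest, and DDX58 was at 161 CPM there and at 163 CPM in knockdown replicate 2. A relation between RN7SL1 and DDX58 was not tested. Of this pair, neither passed at a threshold of 0.01, without the filter, or when any control library or knockdown replicate 2 was left out. Both passed with the filter of 5 CPM in 3 libraries, with DESeq2, with limma-voom and without knockdown replicate 1 or 3.

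The genes with a profile most like that of DDX58 over the 6 libraries, among 9490 others at a mean of 10 CPM or more, were SP110, FTH1P5, ANPEP and NIPAL4. Their mean absolute difference from DDX58 in centred log2 CPM was 0.080, 0.082, 0.093 and 0.097. SP110 is an interferon-inducible nuclear body protein gene, with 88.2 ± 18.1 CPM in the knockdown and 35.8 ± 3.30 CPM in the control (SD, n = 3 each). FTH1P5 is a pseudogene of the ferritin heavy chain whose reads may be shared with its parent gene, ANPEP codes for an aminopeptidase and NIPAL4 for a membrane protein of the magnesium transporter family.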

How the data were processed

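The protocols in the labels give Trizol extraction and the Ion Proton RNA-Seq chemistry. The authors deposited raw read counts by gene symbol, and GRCh38 is the build per the submitters' processing notes. How reads were aligned and counted, with which annotation and whether by strand, is not given in the sources used here. Groups and replicate numbers came from the titles.

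Counts were tested with edgeR 4.0.16 in R 4.3.3. Genes were filtered by filterByExpr and scaled by TMM, and a robust quasi-likelihood model was fitted to all 6 libraries. The two-sided F test was adjusted by Benjamini-Hochberg over 15391 genes, at 0.05. The SE is the size of the log2 fold change over the square root of F. Replicates differed beyond sampling noise (chi-square per degree of freedom at least 2.25). The test was tried on simulated counts of 15083 genes. It recovered 25 of 67 genes with a log2 change of 0.5, 53 of 65 with 1 and 63 of 66 with 2, and of its 151 calls 10 were false. Only these few genes were changed in the simulation, whereas 42.0% of genes were called in the data. The adjustment acts differently there, so these shares do not give the recovery in the data. Intervals are 95%, and floors, of 3 counts, cover counting error only. Positions and lengths came from GENCODE release 29.

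Members and lists were chosen with earlier results of these data known. Beside members, up to 3 genes per list were named, by lowest p among those averaging 5 CPM or more, and list genes named beyond these were chosen after their values were seen. CGAS and STING1 were matched by older symbols. Alternatives were RLE, upper quartile or no factors, no filter, 5 CPM in 3 libraries, DESeq2 1.42.0, limma-voom (limma 3.58.1), a replicate block, a threshold of 0.01 and leaving out each library.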

Additional observations from a re-analysis of the deposited data

How the results depend on the processing

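The direction of DDX58, TLR3, TBK1, EIF2AK2, IFIH1, MAVS and TICAM1 was kept under every alternative that could be fitted. DDX58, TBK1 and EIF2AK2 also passed in all 14, with log2 fold changes of 1.33 to 1.53, 0.56 to 0.69 and 0.39 to 0.59. The stricter filter removed TLR3 and DHX58. The number of sensors and adaptors that rose was 3 at a threshold of 0.01 and 3 to 5 when a library was left out, 3 without knockdown replicate 2 or control replicate 1, and it was 5 with DESeq2, limma-voom and the replicate block. Leaving out a library gave 2646 to 3176 genes that rose and 2527 to 2971 that fell. The sign of DHX58 turned with upper quartile factors (-0.0061), with no factors (-0.0046) and with libraries left out (-0.22 to 0.30). That of IRF3 turned without knockdown replicate 2 (0.045) or control replicate 3 (0.081), within a range of -0.10 to 0.081. For these, the cause was not tested. With the longest transcript as length, control levels were 7.58 CPM per kb for IFIH1, 1.71 for DHX58, 10.4 for TBK1 and 28.3 for IRF3. The replicate block gave 3321 genes that rose and 3200 that fell, against 3274 and 3183 in the main fit. Same-numbered libraries had correlations of deviations of -0.23, 0.12 and 0.086. With so few libraries these values cannot decide whether the numbers pair them. Depth limits DHX58, TLR3 and the interferons most.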

Other observations

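Some widely expressed genes of these routes had almost no reads outside the run around IRF7. TRAF2, a ligase in the relay from MAVS, had 1 read over all 6 libraries, while its neighbours EDF1 and FBXW5 had 11449 and 6464. TAB2, an adaptor of the kinase MAP3K7, had 1 read, and TNRC6A, the partner of Argonaute proteins, had 0 between RBBP6 with 3220 and SLC5A11 with 184. TICAM2, the TRIF-related adaptor of TLR4, was listed at 0, and the read-through gene TMED7-TICAM2, which contains it, had 261 reads. These genes were named after their values were seen. The sensors and adaptors other than IRF7 had from 231 reads (TLR3) to 15423 reads (MAVS) over the 6 libraries.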
